A study of Nothobranchius furzeri with 19 samples.

Results

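The change from the hatching stage to the third day after hatching was examined in trunks of male turquoise killifish (*Nothobranchius furzeri*) of the wild-type laboratory strain GRZ. The members were chosen by their labels alone: 3 male trunk libraries at 0 days post hatching (dph) and 3 male trunk libraries at 3 dph. They are 6 of the 19 libraries of the series. The paper uses 0 dph for the hatching stage, which embryos ready to hatch can keep for several weeks. The time between the groups may therefore differ from 3 days. The series also holds RNA-seq libraries of whole embryos at 10 days post fertilization (dpf), of female trunks at 0 dph (2 libraries) and 3 dph (3 libraries), and of adult gonads. It was made to follow gene expression in the sexes around the time of sex determination. The labels name no treatment or transgene for any of these groups, so age is the only labelled difference between the male groups. A trunk library holds RNA of many tissues, the gonad being a small part of them.

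A killifish embryo completes its organs inside the egg, where it can wait for water, and hatches as a swimming larva that soon takes food in place of yolk. The gut takes up food in these days, the liver makes most proteins of the blood plasma, and red blood cells carry oxygen bound to haemoglobin. Immediate-early genes, a class of genes that cells switch on quickly and transiently after a stimulus, and genes of the daily clock and of fasting follow the state of the animal when it is sampled.

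The male libraries of hatching held 17324478 to 19501545 counts and those of the third day 25600939 to 31493908, so depth differed with age, and the 10 most abundant genes took from 10.9% to 13.1% of the counts at 0 dph and from 23.6% to 29.5% at 3 dph. No library was a copy of another, since the counts of every replicate pair lay further apart than sampling allows (chi-square over its degrees of freedom from 30.2 to 59.2). The labels do not say whether replicates came from separate fish, clutches or pools, so p-values measure only the spread between these libraries. The labels were checked against markers. A transcript that marks males in these libraries, si:dkey-11o15.10, had between 13 and 77 raw counts in the 6 male trunk libraries and at most 1 in the female trunk libraries. The paper picked it as higher in males from this same series, so it is no independent check of the sex labels. Of 33 genes of retina and lens, organs of the head, 17 stayed under 10 raw counts in every male trunk library. The summed normalised count of the 33 genes was 385 to 480 in the 0 dph libraries and 344 to 417 in those of 3 dph. Single members moved both ways under this sum. By the test described below, 3 of 21 were higher and 3 lower at 3 dph (14.3% each, against 19.5% and 19.9% over all genes tested). Summed counts of tissue markers varied among replicates. Replicate 1 at 0 dph had the highest summed count of 33 genes of synapses and transmitters (8333, against 4306 and 4416 in the other 0 dph libraries and 2426, 5699 and 4378 at 3 dph), and the lowest of 15 genes of skin and epithelium (46742, against 123516 and 145000). Results that turn on these replicates are given with and without them.

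Normalised counts are raw counts divided by the median-of-ratios size factor of the library, and they compare libraries for a given gene, not genes with each other. A gene was called changed, or a differentially expressed gene (DEG), where the DESeq2 Wald test over these 6 libraries gave a Benjamini-Hochberg adjusted p-value under 0.05. The test gave an adjusted p-value for 22642 genes and called 8923 of them (39.4%), of which 4419 were higher (19.5% of genes tested) and 4504 lower (19.9%) at 3 dph. The median log2 fold change, 3 over 0 dph, was 1.19 for the higher and -1.15 for the lower DEGs, and 5422 DEGs changed at least 2-fold. At least 8-fold changes were found for 454 genes that rose and 184 that fell. The first principal component, with 82.0% of the variance of the 500 most variable genes, separated the ages (-45.9 to -40.8 at 0 dph, 39.9 to 44.7 at 3 dph). A count of DEGs in a group of genes has to be read against these shares. The groups and their members were chosen with earlier results of these data known. Such counts therefore describe the listed genes and are no test of a group. The libraries of the ages did not overlap in 51.5% of the genes tested. Symbols, orthologs of zebrafish or human genes, were known for 2671 of the 26740 genes, and 2518 of these were tested (454 higher, 513 lower). Groups of genes are described from acute responses to growth, organs and tissues.

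**Figure D1:**
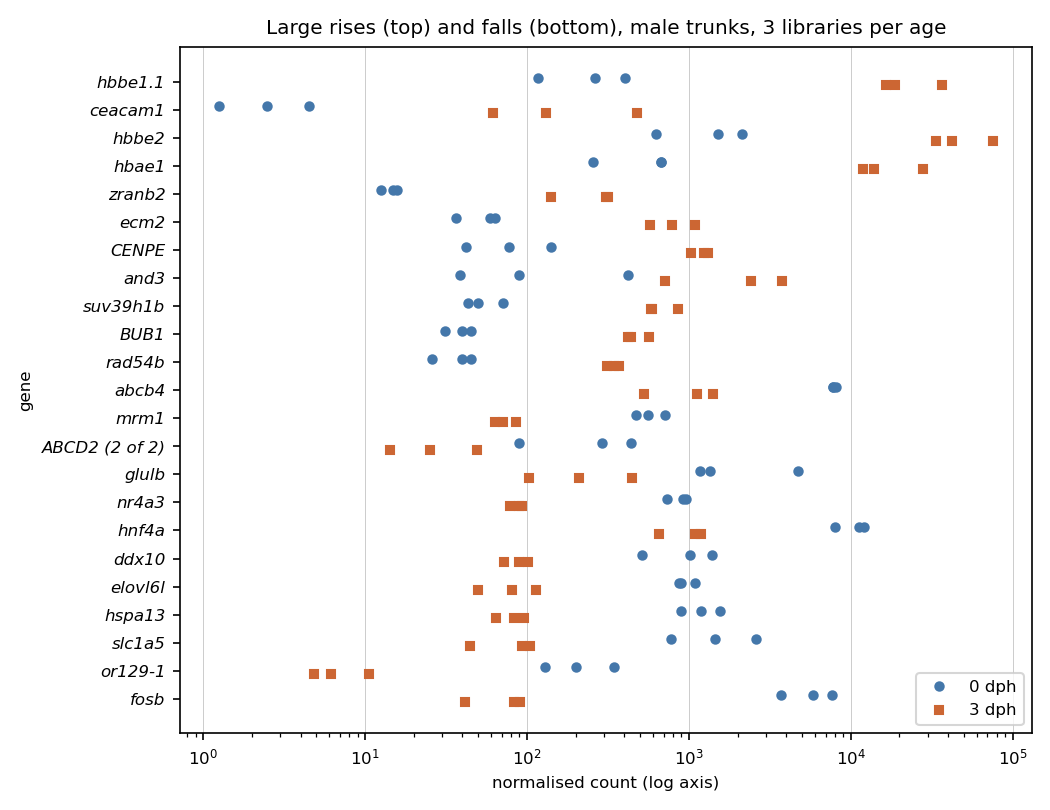
Normalised counts (log axis) of 11 genes that rose and 12 that fell, named for the size of their change among genes with a symbol and a mean normalised count of at least 100, with 1 point per male library (circles 0 dph, squares 3 dph, 3 libraries each). The groups do not overlap for any of the 23 genes, which the rule for naming them required, and the span runs from *hbbe1.1*, 92.0-fold higher at 3 dph, to *fosb*, 79.5-fold lower.

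Immediate-early genes fell from 0 to 3 dph. All 7 measured members of the list were lower at 3 dph (100%, against 19.9% over all genes tested). Their median log2 fold change was -2.11, against -0.03 over all genes tested. The largest fall was that of *fosb* (Nfu_g_1_000355), which encodes a subunit of the AP-1 transcription factor. Its normalised counts were 5829, 3699.7 and 7639 in the 0 dph libraries and 90.1, 83.6 and 41.8 at 3 dph. The lowest library of hatching stood above the highest library of 3 dph, and the fall was 79.5-fold, which is -6.31 ± 0.35 on the log2 scale (SE, DESeq2 adjusted p = 6.41e-69). The nuclear receptor gene *nr4a3* went from 968, 917 and 731 to 89.2, 92.7 and 79.1 normalised counts (log2 fold change -3.32 ± 0.22). *IER2*, another immediate-early transcription regulator, went from 6161, 3985 and 7759 to 1221, 775 and 483 (-2.85 ± 0.36), so that all 3 genes separated the ages without overlap. The growth arrest gene *gadd45ab* (-2.11 ± 0.23), *ZFP36* (-1.96 ± 0.28), whose protein promotes decay of short-lived mRNAs, the nuclear receptor gene *nr4a1* (-1.88 ± 0.28) and the kinase gene *pim1* (-1.36 ± 0.34) fell less. The summed normalised count of the 7 genes was 18768 to 35144 in the 0 dph libraries and 4576 to 6624 in those of 3 dph. All 7 remained called with any of the 6 libraries left out. The state of the animals at sampling and their age cannot be told apart for these genes.

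Genes of the daily clock and of fasting fell with them. None of 11 members was higher at 3 dph, and the median log2 fold change was -1.35. In all, 10 were lower (90.9%, against 19.9% over all genes tested). They were *cebpb*, a transcription factor of metabolic and acute-phase genes (-1.69 ± 0.28), the autophagy kinase gene *ulk1b* (-1.56 ± 0.31), *foxo1a* (-1.45 ± 0.34) and *foxo1b* (-1.48 ± 0.52), transcription factors of the fasting state, *klf15* (-1.38 ± 0.34), which in mammals promotes the use of amino acids in fasting, *txnipa* (-1.27 ± 0.35), an inhibitor of glucose uptake, *ppp1r3cb* (-0.94 ± 0.25), which directs phosphatase to glycogen, and the clock genes *dbpb* (-1.35 ± 0.26), *hlfb* (-1.23 ± 0.26) and *cry2a* (-0.99 ± 0.30). *Klf15* was at 246, 475 and 559 normalised counts at 0 dph and at 191, 175 and 126 at 3 dph. The clock activator gene *arntl1b*, with 31.7, 13.6 and 12.5 and 23.9, 30.0 and 32.9 normalised counts, was the member that did not pass (log2 fold change 0.57 ± 0.50, DESeq2 adjusted p = 0.382). For *foxo1b* the call depended on single libraries, since the adjusted p was 0.108 without 0 dph replicate 2, 0.0809 without 3 dph replicate 2 and 0.0858 without 3 dph replicate 3, and the log2 fold change was -2.22 without 3 dph replicate 1. Between 9 and 10 members were lower when any library was left out. The labels give no time of day for the sampling, so time of day and age cannot be told apart for these genes.

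Genes of DNA replication and mitosis rose. At 3 dph 17 of 25 members were higher (68%, against 19.5% over all genes tested) and 1 was lower (4%, against 19.9%). The median log2 fold change was 1.82. *BUB1* (Nfu_g_1_000124), a kinase of the spindle checkpoint, had 39.7, 31.0 and 45.0 normalised counts at 0 dph and 421, 571 and 438 at 3 dph. All 3 libraries of 3 dph lay far above all of 0 dph (log2 fold change 3.63 ± 0.27 (SE), DESeq2 adjusted p = 2.74e-37), a 12.4-fold rise. *Ect2*, which is needed for cytokinesis, went from 70.2, 74.4 and 63.8 to 464, 675 and 549.9 (3.02 ± 0.25). The condensin gene *smc4* was among the more abundant members and went from 563, 361 and 390.1 to 2423, 2687 and 2617 (2.55 ± 0.22). Smaller rises were those of the replication genes *prim1* (2.51 ± 0.34), *rfc4* (2.04 ± 0.41), *dscc1* (2.42 ± 0.26), *rpa1* (1.82 ± 0.28) and *rrm1* (1.83 ± 0.29), which encode primase, a clamp loader subunit, a clamp loading factor, a single-strand binding protein and a subunit of ribonucleotide reductase. *Suv39h1b*, a histone methyltransferase of heterochromatin, rose 12.5-fold (3.64 ± 0.29), and the cohesin regulator gene *cdca5* by 2.59 ± 0.44 on the log2 scale.

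The symbol *CENPE*, a kinesin of the kinetochore, belongs to 4 identifiers, and only Nfu_g_1_000450 among them passed the test. It went from 77.0, 42.2 and 141 to 1039, 1313 and 1244 normalised counts (3.79 ± 0.37), while Nfu_g_1_000419 was at 86.1, 53.3 and 72.5 and 95.4, 84.3 and 108 (0.44 ± 0.30). How reads of near-identical copies were assigned is uncertain here, as for other symbols with several identifiers. The member that fell was *ccnd1* (722, 966 and 630.2 against 222, 352 and 216, log2 fold change -1.55 ± 0.28), the cyclin of the G1 phase that growth signals induce. The DNA repair genes *rad54b* (3.22 ± 0.27) and *rad54l* (1.34 ± 0.25) rose, whereas *brca2* did not pass (0.32 ± 0.33, adjusted p = 0.472). Between 17 and 18 members were higher when any library was left out. In bulk libraries such as these, more cells of a kind and more RNA per cell cannot be told apart.

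**Figure D2:**
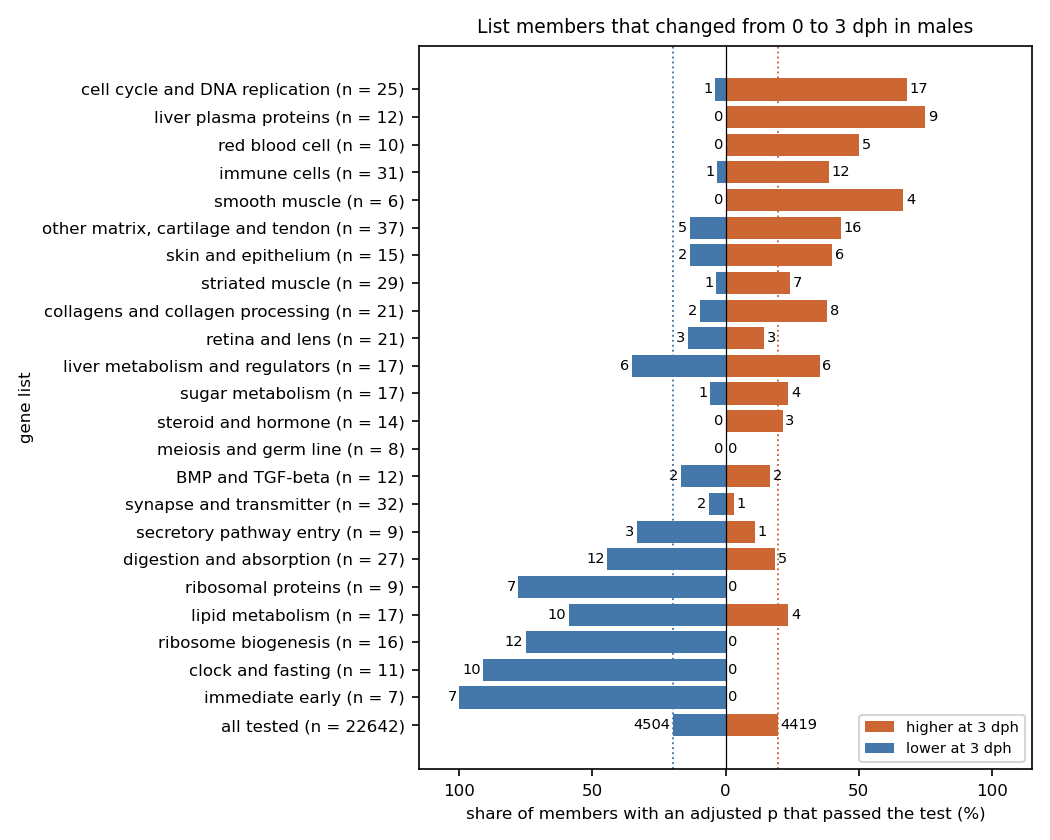
Share of the tested members of each gene list that were higher (orange, right) or lower (blue, left) at 3 dph in males (DESeq2 adjusted p under 0.05), with the number of members beside each bar and dotted lines at the shares over all 22642 genes tested (19.5% higher, 19.9% lower). Lists are ordered by median log2 fold change, and pigment cell genes are left out because only 2 were tested. No member was higher in the lists of immediate-early, clock and fasting, ribosomal protein, ribosome biogenesis, and meiosis and germ line genes. No member was lower in those of plasma protein, red blood cell, smooth muscle, steroid and hormone, and meiosis and germ line genes.

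Globin genes were among the genes with the largest rises. The beta globin gene *hbbe1.1* (Nfu_g_1_007507) was at 406, 117 and 263 normalised counts at 0 dph and at 18829.8, 36835 and 16573 at 3 dph, a 92.0-fold rise (log2 fold change 6.52 ± 0.44 (SE), DESeq2 adjusted p = 8.44e-48). *Hbbe2* went from 2135, 628 and 1517 to 33685, 75992 and 42508 (5.15 ± 0.43). The alpha globin *hbae1* went from 671, 254 and 676 to 14010.3, 27891 and 11848 (5.07 ± 0.42). For each of these genes 0 dph replicate 2 was lowest and 3 dph replicate 2 was highest, and the ages did not overlap. Other members of this list moved less. A further *hbbe1.1* identifier (Nfu_g_1_007560) rose by 2.25 ± 0.42, and *hmbsb*, an enzyme of haem synthesis, went from 990.2, 869.7 and 660.2 to 1572, 5076 and 2471 (1.86 ± 0.39). The erythrocyte ammonium transporter gene *rh50* (0.85 ± 0.50), the transferrin receptor gene *tfr1a* (-0.26 ± 0.23) and the membrane skeleton gene *ANK1* (-0.44 ± 0.33) did not pass (adjusted p = 0.174, 0.379 and 0.291). In all, 5 of 10 red blood cell genes were higher (50%, against 19.5% over all genes tested) and none was lower. The summed normalised count was 3658 to 5488 in the 0 dph libraries and 70670 to 148135 in those of 3 dph. How much blood each sample held is not given, and its part in this difference was not tested.

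Plasma proteins of the liver rose as a group. Of 12 members, 9 were higher (75%, against 19.5% over all genes tested) and none was lower. The median log2 fold change was 1.39. *Serpina1* (Nfu_g_1_000093), a secreted protease inhibitor, went from 15249, 17021 and 19525 to 56458, 53732 and 50214 normalised counts (1.63 ± 0.17 (SE), adjusted p = 1.17e-19). The replicates of each age lay close together and the ages far apart. The genes *fgb* (1.15 ± 0.18), *f2* (1.12 ± 0.18) and *plg* (1.34 ± 0.18), which encode a fibrinogen chain, prothrombin and plasminogen, rose between 2- and 3-fold. The fibrinogen gene *fga* did not pass, with 2049.6, 1856 and 3039.7 and 4719, 3165 and 2264 normalised counts (0.55 ± 0.31, adjusted p = 0.16). Some genes of innate defence had larger rises. *Lect2l*, a secreted protein of the leukocyte chemotaxin family, went from 276, 239 and 256 to 1297, 1596 and 3179 (2.97 ± 0.34), and the pentraxin gene *APCS* from 22.7, 39.7 and 40.0 to 169, 234 and 239 (2.66 ± 0.32). *Masp2*, a protease that starts the lectin pathway of complement, went from 2.27, 6.20 and 1.25 to 49.5, 50.9 and 48.9 (3.95 ± 0.64, and 4.80 without 0 dph replicate 2).

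Enzymes and regulators of the liver went both ways, with 6 of 17 higher and 6 lower. Each is 35.3%, against 19.5% higher and 19.9% lower over all genes tested. The transcription factor gene *hnf4a* (Nfu_g_1_001809), which is known for its role in liver, gut and kidney, had 7967, 11320.0 and 12106 normalised counts at 0 dph and 1192, 659 and 1089 at 3 dph. It fell in every library of 3 dph relative to every library of hatching (log2 fold change -3.42 ± 0.28, DESeq2 adjusted p = 9.67e-32), while the fatty acid binding protein gene *fabp10a*, a marker of hepatocytes in fish, rose from 8612, 6512 and 8252 to 24252, 22462 and 29969.8 (1.71 ± 0.20). *Cps1*, the entry enzyme of the urea cycle, rose from 305, 366 and 580.2 to 1775, 1399.5 and 1055 (1.76 ± 0.30). *ARG1*, the last enzyme of that cycle, rose by 1.16 ± 0.29 on the log2 scale, and its ornithine carrier gene *slc25a15a* went from 55.5, 123 and 128 to 24.7, 20.2 and 27.5 (-2.08 ± 0.41). The mitochondrial carrier gene *slc25a47a* rose from 5.66, 14.9 and 5.00 to 118, 82.2 and 153 (3.80 ± 0.49, and 4.46 without 0 dph replicate 2). *Nr0b2a*, a receptor that represses bile acid synthesis in mammals, was at 104, 122 and 17.5 and 565, 212 and 441 (2.32 ± 0.56, adjusted p = 1.99e-04, and 0.0837 without 3 dph replicate 3).

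Of 27 tested genes of digestion and absorption, 12 fell and 5 rose (median log2 fold change -0.55). The share that fell was 44.4%, against 19.9% over all genes tested. The share that rose, 18.5%, was near the 19.5% over all genes. *Cdh17* (Nfu_g_1_001201), a cadherin of the intestinal epithelium, went from 862, 3459 and 2703 to 274, 348 and 361 normalised counts (-2.84 ± 0.42 (SE), adjusted p = 3.19e-10), and the brush border myosin gene *MYO7B* from 3946, 4511 and 5868 to 823, 360.3 and 982 (-2.73 ± 0.35). Replicate 1 of 0 dph was the lowest of its age for both. A further *cdh17* identifier (Nfu_g_1_001323) was at 3371, 4715 and 4721 and 2672, 2025 and 3139 (-0.71 ± 0.24), so the size of the fall differed between identifiers. Chitinase identifiers diverged too: *chia.3* (Nfu_g_1_001861) fell by 2.06 and *chia.6* (Nfu_g_1_001997) by 1.77 on the log2 scale, another *chia.3* identifier (Nfu_g_1_001838) rose by 0.76, and *chia.4* (Nfu_g_1_002419) went from 188, 161 and 160.0 to 489, 343 and 396 (1.27 ± 0.23). The genes of the folate transporter *slc46a1* fell at 2 of 3 identifiers (-1.43 ± 0.40 and -1.35 ± 0.44, with -0.55 ± 0.28 for the third, adjusted p = 0.108). Sucrase-isomaltase (*SI*), which splits sugars at the brush border, had 773, 2947 and 2798 and 1833, 749 and 2075 normalised counts, with overlapping groups (-0.49 ± 0.49, adjusted p = 0.459). The 2 identifiers of *apoa4*, an apolipoprotein that intestine secretes with absorbed fat, rose (1.61 ± 0.22 and 1.52 ± 0.26), the first of them from 478, 379.6 and 584 to 1647, 1381 and 1362. An identifier of the metalloprotease gene *MEP1B* (Nfu_g_1_001060) rose from 18.1, 33.5 and 12.5 to 143, 55.1 and 166 (2.50 ± 0.51), while another (Nfu_g_1_001098) fell from 389, 378 and 470.1 to 189, 172 and 201 (-1.14 ± 0.20). Between 9 and 12 members fell and 4 or 5 rose when any library was left out.

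Among 17 genes of lipid metabolism, 10 fell and 4 rose (median log2 fold change -0.90). The share that fell was 58.8%, against 19.9% over all genes tested. The share that rose, 23.5%, was near the 19.5% over all genes. *Elovl6l* (Nfu_g_1_009921), an elongase of fatty acids, was at 1093, 889.6 and 872 normalised counts at 0 dph and at 113, 50.2 and 80.8 at 3 dph (-3.55 ± 0.30 (SE), adjusted p = 7.27e-30). A second *elovl6l* identifier (Nfu_g_1_000937) fell by 1.65. The 0 dph libraries of the first one lay within a narrow range, and the highest library of 3 dph was far below it. *Ch25h*, which hydroxylates cholesterol, went from 411, 268 and 324 to 71.6, 88.5 and 84.4 (-2.04 ± 0.26), and the hormone-sensitive lipase gene *lipeb* from 113, 128 and 135 to 70.7, 44.6 and 63.1 (-1.08 ± 0.28). *Agpat9l*, of glycerolipid synthesis (-1.31 ± 0.29), and *crot*, of peroxisomal fatty acid handling (-1.26 ± 0.35), fell as well, and *ech1* did not pass (-0.05). In the opposite direction went fatty acid synthase (*fasn*, 72.5, 75.7 and 73.8 against 271, 226 and 208, 1.67 ± 0.24) and farnesyl diphosphate synthase (*fdps*, 1063, 1620.3 and 1364 against 2696, 3214 and 2838, 1.11 ± 0.21), an enzyme of sterol synthesis. Without 3 dph replicate 1 the number of lipid genes that rose was 2. Of 17 genes of sugar metabolism, 4 were higher (23.5%, near the 19.5% over all genes) and 1 was lower (5.88%, against 19.9%). The number lower was 2 without 0 dph replicate 1, 0 dph replicate 3 or 3 dph replicate 2. *Fbp1a*, the gene of a gluconeogenesis enzyme, rose from 292, 957 and 451 to 4708, 2253 and 4081 (2.70 ± 0.42, and 3.30 without 0 dph replicate 2). The hexokinase gene *hk1* fell (-1.15 ± 0.24), and triosephosphate isomerase (*tpi1b*) was at 3767, 4000.0 and 4754 and 4489.9, 4066 and 4065 (0.01 ± 0.17, adjusted p = 0.968).

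Genes of the protein synthesis machinery fell. Of 9 ribosomal protein genes, 7 were lower (77.8%, against 19.9% over all genes tested) and none was higher. Each of the 7 fell by less than 2-fold except *rps7*, and the median log2 fold change of the list was -0.62. *Rps7* went from 138478, 104605 and 108329 to 59622, 54402 and 60811 normalised counts (-1.01 ± 0.18 (SE), adjusted p = 4.47e-07). *Rpl5b* went from 132921, 118780.0 and 118372 to 67109, 59976 and 62542 (-0.96 ± 0.15), and the ages did not overlap for either gene. Of 16 tested genes of ribosome assembly, 12 were lower (75%, against 19.9%) and none was higher (median -0.95). The RNA helicase gene *ddx10* showed the largest fall, from 511, 1392 and 1014 to 102, 72.5 and 88.8 (-3.47 ± 0.36), followed by *mdn1*, an ATPase that releases assembly factors from pre-60S particles (593, 351 and 923 against 104, 80.2 and 196, -2.30 ± 0.42). *Tsr1* (-1.54 ± 0.25), *nop2* (-1.42 ± 0.25) and *grwd1* (-1.25 ± 0.21), all factors of ribosomal subunit maturation, fell between 2- and 3-fold. *HEATR1* was at 1551, 1599 and 2037 and 1644, 1694 and 1674 (-0.05 ± 0.18, adjusted p = 0.863). The ribosomal proteins held a summed normalised count 487395 to 598179 in the 0 dph libraries and 287183 to 323282 in those of 3 dph. Of 9 genes of entry into the secretory pathway, 3 fell (33.3%, against 19.9% over all genes tested) and 1 rose (11.1%, against 19.5%). Among them *hspa13*, a chaperone of the HSP70 family in the endoplasmic reticulum, fell from 901, 1568 and 1193 to 96.3, 83.6 and 64.8 (-3.90 ± 0.28, adjusted p = 6.52e-42), and *srpr*, the receptor for the signal recognition particle, from 1353, 1729.5 and 1882 to 568, 498 and 492 (-1.67 ± 0.20). The third, *ssr2* (-0.43 ± 0.16), passed without 0 dph replicate 1 and lost its call without any other library. Without 0 dph replicate 1, 7 members of that list were lower.

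**Figure D3:**
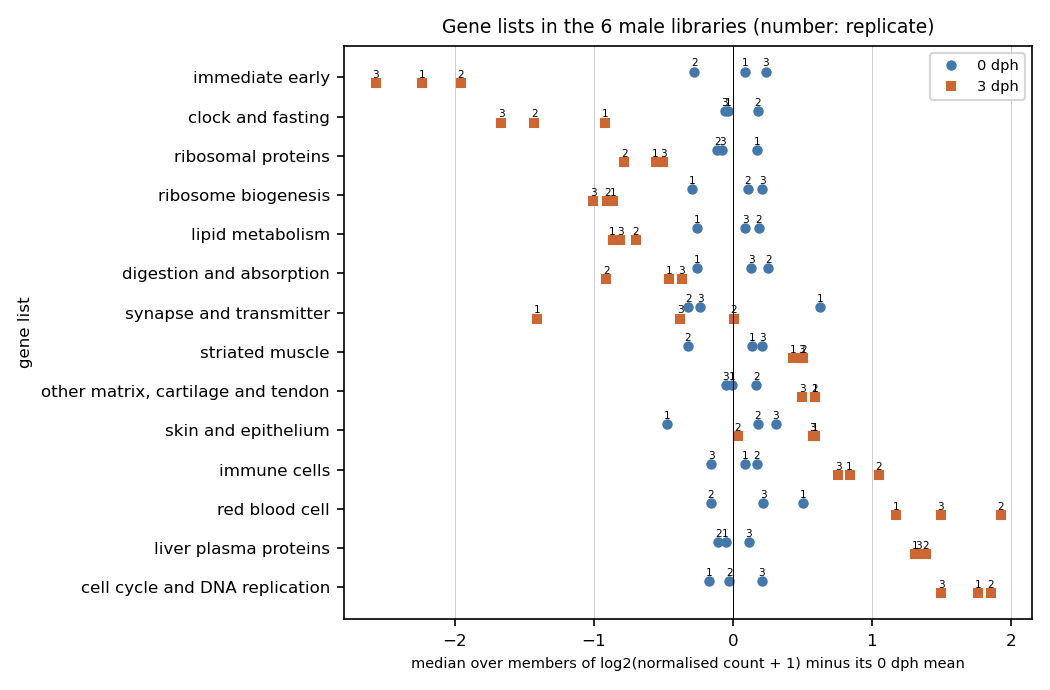
Level of 14 gene lists in each male library, as the median over the tested members of log2(normalised count + 1) minus the member's mean at 0 dph, with 1 point per library (circles 0 dph, squares 3 dph) and the replicate number above it. Lists of cell cycle, plasma protein and immediate-early genes separate the ages by more than the replicates differ, whereas synapse and transmitter genes span 0.63 to -0.32 at 0 dph and 0.01 to -1.41 at 3 dph and overlap.

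Matrix genes rose more often than they fell. Of 37 genes of matrix, cartilage and tendon, 16 were higher (43.2%) and 5 lower (13.5%), with a median log2 fold change of 0.57. Without 0 dph replicate 3, 8 were lower. Of 21 collagens and enzymes of collagen processing, 8 were higher (38.1%) and 2 lower (9.52%), with a median of 0.38. Over all genes tested 19.5% were higher and 19.9% lower. *Ecm2* (Nfu_g_1_021353), a matrix protein gene, went from 36.3, 59.6 and 63.8 to 1085, 789.7 and 573 normalised counts (3.94 ± 0.33 (SE), adjusted p = 3.67e-31), and *postnb*, periostin of connective tissue, from 1012, 3909 and 4509 to 15740.2, 11811 and 13119 (2.11 ± 0.44). *Fmoda*, for fibromodulin, a proteoglycan that binds collagen, had an even level within each age (181, 181 and 179 against 499, 477 and 533, 1.48 ± 0.18). The other fibromodulin gene, *fmodb*, was uneven (3.40, 19.9 and 0 against 132, 32.1 and 66.6, 3.31 ± 1.40, adjusted p = 0.0458), with 5.44 without 0 dph replicate 2, 2.68 without 3 dph replicate 1, and its call lost without 0 dph replicate 1 or 3 dph replicate 2 or 3 (0.0913 to 0.170). The gelatinase gene *mmp2* rose from 190.3, 304 and 235 to 606, 671 and 476 (1.27 ± 0.25). In the opposite direction, *chad*, a protein of cartilage, went from 256, 171 and 199 to 45.1, 59.2 and 68.4 (-1.86 ± 0.29), and *ctgfa*, a matrix protein that tension and growth factors induce, from 38.5, 78.2 and 25.0 to 3.53, 6.97 and 6.22 (-3.07 ± 0.60). One identifier of the fibulin gene *fbln1* (Nfu_g_1_001353) was at 176, 103 and 28.8 and 21.2, 16.0 and 10.7 (-2.68 ± 0.59, and -2.04 without 0 dph replicate 1), and another (Nfu_g_1_000141) was at 0.24 ± 0.37. Cartilage collagen II (*col2a1a*) did not pass (378, 968 and 668 against 216, 1009 and 671, -0.09 ± 0.49, adjusted p = 0.913).

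Among the collagens, *COL5A2* of fibrils went from 3906, 3734 and 3237 to 7397, 6324 and 6581 (0.90 ± 0.17) and *COL12A1* (Nfu_g_1_000106), which sits on fibrils, from 1193, 1145 and 2363 to 3402, 2929 and 3159 (1.01 ± 0.30). Among genes of collagen folding and processing, *fkbp10b* rose from 336, 359.8 and 333 to 1121, 871 and 978 (1.53 ± 0.19), *fkbp7* by 1.97 ± 0.27 and *leprel2*, a prolyl hydroxylase, by 1.15 ± 0.23, whereas *hsp47* (0.31), *p4ha1a* (0.15), *p4ha3* (0.01) and *plod1a* (-0.36) did not pass. The 2 members that fell, *col9a3* (-0.96 ± 0.40) and *COL27A1* (-0.71 ± 0.28), did so with DESeq2 adjusted p-values of 0.0446 and 0.0322. The call of *col9a3* was lost without any library other than 3 dph replicate 2 (0.0581 to 0.183), and that of *COL27A1* without 0 dph replicate 1, 3 dph replicate 1 or 3 dph replicate 2 (0.122 to 0.165). Fin rays belong to these tissues as well, and *and3*, which encodes an actinodin of the fin fold, was at 89.5, 421 and 38.8 and 3779.6, 716 and 2440.2 normalised counts (3.66 ± 1.09, adjusted p = 0.00326), with a log2 fold change of 5.17 without 0 dph replicate 2.

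Genes of striated muscle rose at a share near that over all genes tested and rarely fell. Of 6 genes of smooth muscle, 4 rose (66.7%, against 19.5% over all genes tested). Of 29 genes of striated muscle, 7 were higher (24.1%, against 19.5% over all genes tested) and 1 was lower (3.45%, against 19.9%). The other 21 did not pass (median log2 fold change of the list 0.39). Among those that rose were *clcn1a*, the chloride channel of the muscle membrane (801, 603 and 799 against 2176, 1615 and 1879.7, 1.36 ± 0.21), the splicing factor gene *rbfox1l* (590.3, 509 and 824 against 1846, 1551 and 1489.7, 1.35 ± 0.24), the calcium channel subunit gene *cacng6b* (1.54 ± 0.29), *fbxo32*, a ubiquitin ligase of muscle (1.43 ± 0.34), *mybpc3*, a myosin binding protein (0.66 ± 0.24), and *PPP1R27* (Nfu_g_1_020797, 0.56 ± 0.24, adjusted p = 0.047). Contractile genes such as *tnnc1b* (-0.01 ± 0.21), *vmhc* (0.36 ± 0.22) and *actn2* (0.63 ± 0.37) did not pass. The member that fell, *IGFN1* (Nfu_g_1_021499, -1.22 ± 0.50), had overlapping groups and lost its call without 0 dph replicate 1 or 3 and without 3 dph replicate 2 or 3 (adjusted p = 0.106 to 0.329). The level of *tnnc1a*, troponin C of slow and cardiac muscle, varied among 0 dph libraries (1244, 146 and 1075), with 3 dph values of 807, 1682 and 1966. Of 6 smooth muscle genes 4 were higher, and 2 of these, *myh11a* (3007, 3037 and 4426 against 10278, 5909.6 and 7219, 1.16 ± 0.27) and *tpm4a* (826, 1316 and 611 against 2589, 2769 and 2839, 1.57 ± 0.29), kept the call with any library left out. *Acta2* (0.79 ± 0.32) lost it without 0 dph replicate 1 or 2 or 3 dph replicate 1 or 3 (adjusted p = 0.0558 to 0.245), and *cald1l* (0.38 ± 0.16) without any library other than 0 dph replicate 1 (0.0990 to 0.168), so that 2 or 3 members were higher in those fits.

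Epithelial genes were dominated by a keratin. *Krt5* (Nfu_g_1_001437), a keratin of basal epidermis, was at 25843, 81343 and 109176 normalised counts at 0 dph and at 389221, 327223 and 261633 at 3 dph (2.18 ± 0.43 (SE), adjusted p = 3.51e-06), and rose to between 1.15% and 1.51% of all counts. Replicate 1 stood low among the 0 dph libraries, as it did for the whole list. *Dspa*, desmoplakin of cell junctions, went from 206, 649 and 859 to 2488, 2219.8 and 1726 (1.91 ± 0.43). The simple-epithelium keratin gene *krt18* fell at 1 identifier (Nfu_g_1_001656, 10764, 30214 and 24845 against 8988, 3559 and 9593, -1.57 ± 0.43) and rose at another (Nfu_g_1_001524, 0.70 ± 0.21). The cytolinker gene *eppk1* fell from 410.1, 398 and 313 to 123, 94.8 and 129 (-1.70 ± 0.24). In total 6 of 15 genes were higher (40%, against 19.5% over all genes tested) and 2 lower (13.3%, against 19.9%). Without 0 dph replicate 1 the number of lower genes was 4. Both pigment genes had little signal: *tyr*, which starts melanin synthesis, was at 109, 155 and 88.8 and 58.3, 75.3 and 48.9 (-0.95 ± 0.33, adjusted p = 0.0122), and lost its call without 0 dph replicate 2 or 3 dph replicate 1 or 3 (0.0644 to 0.124).

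More immune genes rose than fell. Of 31 tested, 12 were higher (38.7%, against 19.5% over all genes tested) and 1 lower (3.23%, against 19.9%). The median log2 fold change was 0.77. The chemokine receptor gene *cxcr3.2* (Nfu_g_1_001089) went from 13.6, 12.4 and 10.0 to 125, 130.3 and 126 normalised counts (3.40 ± 0.37 (SE), adjusted p = 9.99e-19), with no overlap between the ages. Properdin of complement (*CFP*, 83.8, 150.1 and 121 against 379.9, 737 and 677, 2.34 ± 0.33), the haematopoietic actin regulator gene *NCKAP1L* (1.98 ± 0.29), *irf10* (2.50 ± 0.49) and *cd40* (1.80 ± 0.35) also separated the ages. The B cell gene *cd79a* did not (40.8, 21.1 and 28.8 against 36.2, 22.3 and 25.8, -0.11 ± 0.44), nor did *tbx21* of T cells (0.27 ± 0.32). *Bin2a*, a membrane-shaping protein gene of leukocytes, was the member that fell (1210.0, 2468 and 2457 against 648, 458 and 690.2, -1.77 ± 0.31). Leaving out any library left between 9 and 11 genes higher.

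Several lists of interest for a gonad study changed at shares near or below those over all genes tested (19.5% higher, 19.9% lower). Of 8 tested genes of meiosis and germ line none passed in males. The summed normalised count of this list was 212 to 396 in the 0 dph libraries and 266 to 456 in those of 3 dph, so changes of germ cells could be missed in male trunk RNA. In males none of the 8 had an unadjusted p under 0.05 by DESeq2 (0 genes) and none passed with edgeR. However, 1 was higher without 3 dph replicate 1, and 1 was higher in males by the fit over both sexes. In females, by the fit over both sexes, 4 of 8 were higher and none was lower. The median log2 fold change was 1.05, against 0.10 in males by the fit of the 6 male libraries. The sex-by-age interaction had an unadjusted p under 0.05 by DESeq2 for 5 of 8. It passed for 1 of 8, more negative in males, and for 0 with edgeR. The count was 0 without male 0 dph replicate 3, female 3 dph replicate 3, or male 3 dph replicate 1 or 2. It was 2 without male 0 dph replicate 2. Of 14 tested genes of steroid and hormone signalling 3 were higher (21.4%, near the share over all genes) and none was lower. The thyroid hormone receptor gene *thrab* (Nfu_g_1_019515) went from a mean of 24.4 to 55.9 normalised counts (1.19 ± 0.35) without overlap. The steroid hydroxylase gene *cyp11c1* (Nfu_g_1_001331, 1.61 ± 0.60) lost its call without any library other than 0 dph replicate 2 (adjusted p = 0.0554 to 0.140), and the calcitonin receptor gene *calcr* (0.68 ± 0.29) without any other than 0 dph replicate 1 (0.0680 to 0.187). The number of higher members was 1 without 0 dph replicate 3 or any single 3 dph library and 2 without 0 dph replicate 1 or 2. Of 12 genes of the BMP and TGF-beta pathways, to which the sex determinant of this species belongs, 2 were higher and 2 lower (16.7% each). The ligand genes *bmp2b* (28.3, 43.4 and 48.8 against 14.1, 12.5 and 13.3, -1.59 ± 0.44) and *bmp7b* (-1.26 ± 0.39, and -0.87 with adjusted p = 0.0800 without 0 dph replicate 2) fell. *Ltbp3*, which stores latent TGF-beta in the matrix, rose (956, 706 and 661 against 1587, 1336 and 1340.5, 0.87 ± 0.21). The target gene *id1* was at 1369, 1056 and 958 and 1047, 915 and 1022 normalised counts (-0.18 ± 0.21, adjusted p = 0.52). Synapse genes had 1 higher and 2 lower members of 32 tested. The number of lower members was 7 without 3 dph replicate 2 and 0 without 0 dph replicate 1, 3 dph replicate 1 or 3 dph replicate 3, and that of higher members was 0 without any single 0 dph library or 3 dph replicate 2.

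Further genes with a symbol and large changes belong to none of these lists. *Ceacam1*, an adhesion molecule, was at 4.53, 2.48 and 1.25 and 61.8, 131 and 481 normalised counts (6.34 on the log2 scale, adjusted p = 1.01e-07), and without 3 dph replicate 3, the highest library, the log2 fold change was 5.11. *Zranb2*, a splicing regulator, went from 15.9, 14.9 and 12.5 to 140.5, 310.1 and 319 (4.15 ± 0.43). Among the genes that fell, the amino acid transporter gene *slc1a5* went from 778, 2586 and 1460.4 to 92.8, 104 and 44.4 (-4.32 ± 0.44), and the odorant receptor gene *or129-1* from 343, 129 and 201 to 6.18, 4.88 and 10.7 (-4.98 ± 0.49). *Abcb4*, a transporter of the ABC family, was at nearly the same level in all 0 dph libraries (8109.8, 7741 and 7761) and lower in all 3 dph libraries (1408, 528 and 1124, -2.95 ± 0.33). The rRNA methyltransferase gene *mrm1* (-2.97 ± 0.25) and the peroxisomal transporter gene *ABCD2* (89.5, 290.3 and 438 against 49.5, 25.1 and 14.2, -3.20 ± 0.56) fell too. Glutamine synthetase (*glulb*) was at 4736, 1177 and 1349 and 103, 209 and 444 (-3.26 ± 0.84, -2.32 without 0 dph replicate 1 and -3.95 without 3 dph replicate 3). The largest changes of all were those of genes without a symbol: Nfu_g_1_015232 had raw counts of 1, 3 and 0 at 0 dph and 1028, 718 and 557 at 3 dph, and Nfu_g_1_020514 went from a mean of 29.9 to 10169.7 normalised counts (8.41 ± 0.51, and 9.23 without 0 dph replicate 3). The neighbouring identifiers Nfu_g_1_002256 and Nfu_g_1_002255 fell from 1230.4, 581 and 2437 to 5.30, 4.88 and 7.99 (-7.88 ± 0.54, and -7.24 without 0 dph replicate 3) and from 437, 154 and 488 to 1.77, 3.48 and 5.33 (-6.67 ± 0.59).

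The change in males was next compared with the change in females between the same ages, to see where the sexes differed. In a DESeq2 fit over the 11 trunk libraries with a sex-by-age interaction, 8549 of 22452 genes (38.1%) changed in females (20.4% higher, 17.7% lower). By the same fit 10157 genes changed in males (5033 higher, 5124 lower), against 8923 by the fit of the 6 male libraries. Females had 5 trunk libraries and males 6, so the sexes cannot be compared by these counts. The interaction itself passed in 1830 of 20974 genes (8.73%), of which 520 (2.48%) had a more positive and 1310 (6.25%) a more negative change in males, and the count was 887 with edgeR and 1106 without female 0 dph replicate 2, one of only 2 libraries of its group. Cell cycle genes stood on the positive side, with 8 of 24 more positive in males and none more negative. They rose in females too, where 16 of 25 were higher and 1 lower at 3 dph (median log2 fold change 1.02). *BUB1* was at 42.3, 33.1 and 48.1 normalised counts in 0 dph males and 450.1, 612 and 466 in 3 dph males on the scale of this fit, against 154 and 273 in 0 dph females and 569, 583 and 628 in 3 dph females. The 0 dph males were the lowest group and the 3 dph groups overlapped, so that the log2 fold change of females was 1.47 ± 0.27 and the difference between the sexes, male minus female, was 2.16 ± 0.38 (adjusted p = 2.25e-06). *Ect2* (1.95 ± 0.34), *suv39h1b* (2.16 ± 0.43) and *smc4* (1.37 ± 0.33) also passed in this direction. Between 5 and 10 of these genes were more positive in males when any of the 11 libraries was left out, with 5 without female 0 dph replicate 2. Of 35 tested genes of matrix, cartilage and tendon, 7 were more positive in males and none more negative. In females 5 of 37 were higher and 6 lower at 3 dph (median log2 fold change 0.08). The count of 7 was 1 with edgeR, 1 without female 3 dph replicate 2 and 9 without male 0 dph replicate 2. Among genes of ribosome assembly 8 of 16 were more negative in males, such as *CEBPZ* (-1.03 ± 0.18, with a female log2 fold change of 0.02 ± 0.13) and *noc3l* (-1.05 ± 0.27). That count was between 2 and 11 without single libraries, with 2 without female 0 dph replicate 2, 3 without male 0 dph replicate 2 and 11 without male 0 dph replicate 1, and it was 2 with edgeR. *Hspa13* fell more in males than in females (-2.41 ± 0.40, adjusted p = 3.35e-07). For immediate-early genes, 0 of 7 differed between the sexes by adjusted p in DESeq2 or in edgeR (0 with an unadjusted p under 0.05), and *fosb* had a female log2 fold change of -5.61 ± 0.42 with an interaction of -0.71 ± 0.57.

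**Figure D4:**
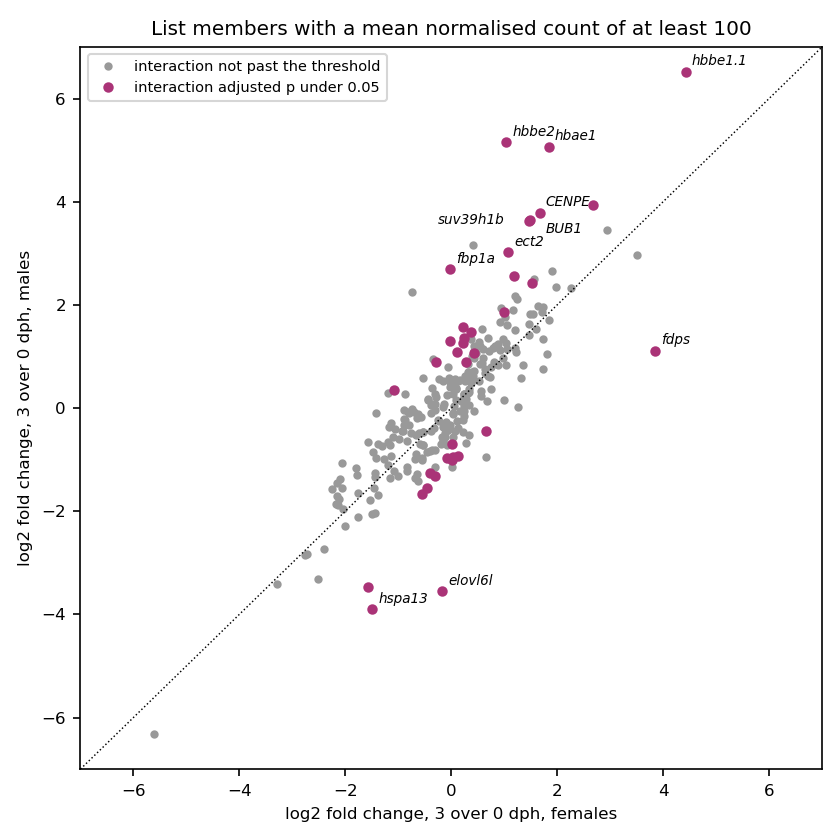
Log2 fold change, 3 over 0 dph, in females (horizontal axis) and males (vertical axis) for 276 list members with a mean normalised count of at least 100. Coloured points are the 36 genes whose interaction passed (22 more positive and 14 more negative in males), those that differ most are named, and the dotted line marks equal change. The named globin and cell cycle genes lie above the line (for *hbbe2* and *hbae1* the interaction was lost without female 0 dph replicate 2), and *elovl6l*, *hspa13* and *fdps* lie below it.

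The male embryos of 10 dpf show where the 0 dph level stood. All 19 libraries were scaled together for this description, in which tissue (whole embryo or trunk) and stage cannot be told apart, and no test was made. *Fosb* was at 55.5, 60.2 and 35.3 normalised counts in embryos, 6755, 4274 and 8994 at 0 dph and 106, 101 and 50.4 at 3 dph, so the hatching libraries were the high ones. *BUB1* was at 702, 771 and 1066 in embryos, 46.0, 35.8 and 53.0 at 0 dph and 497, 690.1 and 528 at 3 dph, and *ect2* at 776, 726 and 990.4, 81.4, 86.0 and 75.1 and 546, 816 and 663. For both mitosis genes the hatching libraries were the low ones, and 3 dph libraries came near the level of embryos. *Hnf4a* was likewise highest at hatching (148, 69.2 and 76.2, then 9232, 13076 and 14255, then 1404, 797 and 1314). *Serpina1* (1272, 169.9 and 177, then 17670.2, 19661 and 22989.7, then 66518, 64960.1 and 60576) and *hbbe1.1* (Nfu_g_1_007507; 112, 44.1 and 23.2, then 470.0, 135 and 309, then 22185, 44533 and 19993) were higher at each later stage. Other globin identifiers were not. *Hbbe2* (32962, 7804 and 5918, then 2473, 725 and 1786, then 39687, 91872 and 51280) was lowest at hatching. So was the *hbbe1.1* identifier Nfu_g_1_007560 (2833, 603 and 347, then 189, 67.4 and 106, then 647, 787 and 339). *Hbae1* overlapped between embryos and hatching (2467, 672 and 347, then 777, 294 and 797).

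**Figure D5:**
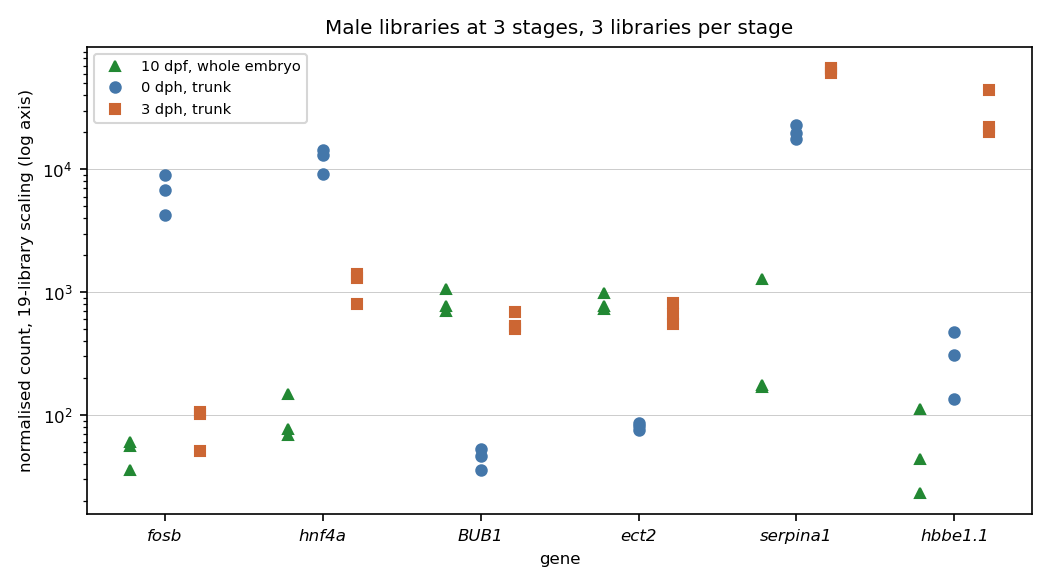
Normalised counts (log axis, all 19 libraries scaled together) of 6 genes in male libraries of 3 stages, with 3 points per stage (triangles whole embryos at 10 dpf, circles trunks at 0 dph, squares trunks at 3 dph). *Fosb* and *hnf4a* are highest at 0 dph, *BUB1* and *ect2* are lowest at 0 dph, and *serpina1* and *hbbe1.1* (Nfu_g_1_007507) are highest at 3 dph.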

How the data were processed

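Trunk RNA of the 6 male libraries was isolated with QIAzol, and TruSeq RNA libraries were sequenced on an Illumina HiSeq, per the labels. Base calls were converted with bcl2fastq 1.8.4, a version from the submitters' processing notes. The authors filtered reads with sga, mapped them with STAR and counted them per gene with summarizeOverlaps of GenomicAlignments. The counting mode and the use of strand are not given in the sources used here, so overlapping or near-identical genes are uncertain. The deposited values are raw counts without normalisation. All 19 columns were matched to samples by their labels, and 0 columns were left unmapped. 0 rows named no gene. Symbols came from the identifiers and symbols paired in a supplementary table of the study. They cover a run of identifiers and genes that stood out between the sexes at 10 dpf, so lists are incomplete. None of the identifiers was found in the RefSeq table of the species, and no sequences or positions are given.

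Differential expression was tested with DESeq2 (version 1.42.0, R version 4.3.3), the tool the authors name, on the 6 libraries with age in the model, for genes holding at least 1 count, with independent filtering at an alpha of 0.05 and unshrunken log2 fold changes. The interaction came from 1 fit over the 11 trunk libraries with sex, age and their interaction. Adjusted p-values left empty stayed empty. The 24 gene lists, the members and the tests were chosen with earlier results of these data known. Genes named were the 12 with the largest rise and fall among symbols with a mean normalised count of at least 100 and no overlap, up to 4 called members per direction of each list, 2 identifiers without a symbol per direction, and the 3 most positive and 3 most negative interactions. Other list members are named as examples of their list, chosen after their values were seen, and a few genes that the rule or the lists hold are not reported here. Alternatives were TMM factors or library totals in DESeq2, edgeR (version 4.0.16) with its quasi-likelihood test, a count minimum of 10, no independent filtering, the fit of the 11 libraries, a 2-fold threshold, a test against a log2 fold change of 1, thinning of the 3 dph libraries, a replicate block, and leaving out each library. Each test was first run on simulated counts, where for the male comparison DESeq2 recovered more of the changed genes than edgeR, and the share of false calls exceeded the threshold of 0.05 for both, by more for DESeq2. It also exceeded it for the interaction, where only DESeq2 was simulated. The simulation held far fewer changed genes than were called here, so its shares of false calls cannot be carried over. The counts of DEGs may still hold more false calls than the threshold sets.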

Additional observations from a re-analysis of the deposited data

Results flagged for a closer look

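The change from 0 to 3 dph differed between the sexes in 1830 genes by the test of the interaction itself (DESeq2 adjusted p under 0.05). The female 0 dph group has 2 libraries, and without its replicate 2 the count was 1106.

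Among genes with a symbol and a mean normalised count of at least 100, 6 genes had the most positive or most negative such difference. For *hbbe2* the difference, male minus female, was 4.12 ± 1.04 on the log2 scale (SE, adjusted p = 0.00241). The female libraries were at 2990.0 and 30251 normalised counts at 0 dph and at 43874, 27320.2 and 30949 at 3 dph, and the males at 2279, 669.6 and 1622 and 35977, 81435 and 45262. Female 0 dph replicate 2 thus stood near the 3 dph libraries, and without it the difference was 1.64 (adjusted p = 0.173), while without replicate 1 it was 4.98. *Hbae1* showed 3.23 ± 0.76 (adjusted p = 9.86e-04), with 1069 and 4673 in 0 dph females, an adjusted p of 0.117 without that library and a difference of 3.93 without female 0 dph replicate 1. *Fbp1a* showed 2.72 ± 0.74 (adjusted p = 0.00614), with 1193 and 4618 in 0 dph females against 312, 1020.2 and 483 in 0 dph males, 1.43 (0.263) without that library, 3.38 without female 0 dph replicate 1, 3.32 without male 0 dph replicate 2, 2.65 (0.109) without male 3 dph replicate 3, and an adjusted p of 0.0755 with edgeR.

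*Elovl6l* (Nfu_g_1_009921) showed -3.39 ± 0.42 (adjusted p = 1.26e-12). Females were at 1276 and 919 normalised counts at 0 dph and 943, 786 and 1204 at 3 dph, and males at 1167, 949 and 932 and 121, 53.8 and 86.1, so the 3 dph males stood apart from the other groups. *Fdps* showed -2.74 ± 0.42 (adjusted p = 2.74e-08), with 121 and 284 in 0 dph females against 1135, 1728 and 1459 in 0 dph males, 3045, 2484 and 3250.2 in 3 dph females and 2879, 3444 and 3022 in 3 dph males, so the 0 dph females stood apart. Both kept the call with any library left out, and without female 0 dph replicate 2 the value of *fdps* was -3.49. *Slc24a4b*, a cation exchanger gene, showed -2.50 ± 0.61 (adjusted p = 0.00162, and 0.0509 with edgeR; -3.54 without female 0 dph replicate 1 and -1.91 without replicate 2), with 393 and 127 and 958, 926 and 1038 in females and 167, 91.3 and 131 and 46.2, 118 and 92.7 in males. It did not pass in males alone (-0.60 ± 0.39, adjusted p = 0.231).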

How the results depend on the processing

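The count of 8923 genes changed in males stayed within 1.5 times under edgeR (8414 genes, 8149 of them shared), TMM factors (8978), library totals (8736, with 44.0% higher), the filter of 10 counts (8970), no independent filtering (8757), the fit of the 11 trunk libraries (10157) and thinned 3 dph libraries (8596), and no gene changed direction in a call. With a 2-fold threshold 5422 genes remained (2716 higher, 2706 lower), and against a log2 fold change of 1 1342 passed (718 higher, 624 lower), which follows from the stricter rule. Without single libraries there were 6792 to 9075 genes, 3310 to 4490 higher and 3482 to 4585 lower. The interaction gave 887 genes with edgeR, 1841 with TMM factors, 1877 with the filter, and 1106 to 2713 without single libraries; the cause was not tested. The labels do not say whether equal replicate numbers mark pairs. Deviations of the male libraries of 0 and 3 dph with the same number correlated at -0.36, 0.02 and -0.03. Those with different numbers correlated at -0.23 to 0.24. Deviations from a mean of 3 libraries depend on each other, so these values cannot settle the pairing. With the replicate number as a block, 6687 genes changed in males (3306 higher, 3381 lower), and the interaction passed in 1133. Of 128 named genes, recomputed in 2109 values, none reversed, 1881 stayed on their side of the threshold and 228 lost the call, of which 121 were outside the stricter thresholds and the block. Of 768 counts of list members 112 moved by over 1.5 times. Depth was higher at 3 dph, genes under about 10 counts are little resolved, and 3 libraries a group leave small changes uncalled.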
